A study of Mus musculus with 12 samples.

Results

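The 10 genes described here regulate how many mitochondria a cell makes and what shape they take. They are Tfam and Polrmt, which transcribe mitochondrial DNA, Nrf1, Gabpa and Ppargc1b, which switch on nuclear genes for mitochondrial proteins, Mfn1, Mfn2 and Opa1, which fuse mitochondria, and Dnm1l and Fis1, which divide them. They were chosen by symbol, with earlier results of these data known, and all 10 were found among the 15754 genes of the deposited count table. RNA was sequenced from white adipocytes differentiated in culture from the stromal vascular cells of epididymal fat, the fat-cell precursors and other non-fat cells of that depot. The donors were wild-type C57BL/6 male mice, 8 weeks old and fed chow, which all groups share. All cultures were induced with IBMX at 250 µM, dexamethasone at 1 µM, and both rosiglitazone (1 µM) and insulin (850 nM). On day 4 after induction they were reverse transfected with a negative control, a let-7d-5p mimic or a let-7e-5p mimic (a synthetic RNA that acts as the named microRNA), and on day 7 they were harvested. Each group has 4 libraries. Libraries 1 and 2 of each group carry 1 run of sample identifiers and libraries 3 and 4 another, here the first and the second series, and how the series differ is not labelled. The series' own description speaks of n = 6, and 4 libraries a group were analysed here. The labels name no separate cultures or animals within a group, so the p-values reflect the spread among libraries, which could be technical.

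A mitochondrion keeps a small genome of its own, but most of its proteins, and every factor that copies and transcribes that genome, are made from nuclear genes. Nrf1 and Gabpa bind the promoters of many of those nuclear genes, Tfam and Polrmt among them, and coactivators of the PGC-1 family, to which Ppargc1b belongs, raise their output. Mitochondria also join and split: the mitofusins Mfn1 and Mfn2 join the outer membranes, Opa1 joins the inner membranes, and the GTPase that Dnm1l encodes is drawn to the outer membrane to cut the organelle, where Fis1 is anchored. In white adipocytes this machinery is built up during differentiation. let-7 microRNAs lower messages that carry, mostly in the 3′ untranslated region (UTR), letters complementary to the microRNA's seed (bases 2 to 8).

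The 2 mimicked microRNAs are shown because they share a seed and differ outside it. The sequences are those of RefSeq (GRCm38.p6), 5′ to 3′, with the seed in capitals, and the labels do not give the sequence of the reagents.
mmu-let-7d-5p: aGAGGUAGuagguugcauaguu
mmu-let-7e-5p: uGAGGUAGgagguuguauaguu
The first is encoded at chr13:48536078-48536099 on the minus strand and the second at chr17:17830366-17830387 on the plus strand. Both seeds read GAGGUAG. The substitutions from let-7d to let-7e, counted from the 5′ end, are A1U, U9G and C16U, all outside the seed.

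Sites for this seed were sought in the longest annotated 3′ UTR of each gene (GENCODE vM21, GRCm38.p6). They were CTACCTCA (an 8mer), CTACCTC (a 7mer-m8) or TACCTCA (a 7mer-A1). The final A of the 8mer and the 7mer-A1 stands opposite base 1, outside the seed, and is not complementary to that base of let-7d. Of the 10 regulators, 4 hold at least 1 such site, and 2301 of the 13547 tested genes with an annotated 3′ UTR do (17%). The median 3′ UTR of the 10 is longer, at 1785.5 bases against 1187. Sites of 3 genes are printed in the direction of the message, with the letters of the site in capitals, so that they can be set beside each gene's response.
Fis1: gcacccctgtagtCTACCTCt
Gabpa: gattttaaaaagtaTACCTCA
Tfam: tagactcggagacCTACCTCA
The Fis1 site, a 7mer-m8, lies at chr5:136966114-136966134 on the plus strand, at position 114 of a 3′ UTR of 220 bases. The Gabpa site, a 7mer-A1, lies at chr16:84861341-84861361 on the plus strand, at position 752 of 3176 bases. The Tfam site, an 8mer, lies at chr10:71225846-71225866 on the minus strand, at position 2707 of 3095 bases. Ppargc1b holds 2 sites of the 7mer-A1 kind in 547 bases of 3′ UTR. These letters are not in the annotated 3′ UTRs of Nrf1, Mfn1, Mfn2, Opa1, Dnm1l and Polrmt that were searched. A match of letters is a description and not a shown target.

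The libraries held 15071299 to 33396316 counts, and every regulator was counted in every library, with at least 299 counts except for Ppargc1b, whose lowest count was 19. The first principal component of log2 CPM (counts scaled to a common library size) took 81.9% of the variance, and the second component took 4.57%. Hmga2 and Dicer1, messages known to be lowered by let-7, fell with both mimics: on the log2 scale Hmga2 fell by 0.84 ± 0.098 (SE) and 0.59 ± 0.095 (let-7d, then let-7e) and Dicer1 by 0.52 ± 0.061 and 0.45 ± 0.061. Adipocyte markers were present in every library. The summed CPM of the 9 of 10 listed adipocyte markers in the table (Lep was not in it) was 22090 to 24130 in the first series and 5324 to 7561 in the second, and all 9 were lower in the second. Of 6 lymphocyte markers none was in the table. CPM below are scaled by TMM (edgeR's trimmed mean of M-values), and fold changes come from edgeR's quasi-likelihood test over all 12 libraries with terms for group and series, with p-values adjusted over all 15754 genes by the Benjamini-Hochberg method and a call at an adjusted p under 0.05. The comparisons of let-7d and of let-7e with control share the 4 control libraries.

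With the let-7d mimic, 2 of the 10 regulators were lower than in control, the fission gene Fis1 and the transcription factor gene Nrf1, and none was higher. Of all genes tested, 16.2% were called in this comparison, 9.81% as lower and 6.41% as higher, so the 2 of 10 lay near the background. The split of all calls depended on the scaling, at 1010 higher and 1545 lower with TMM and 1267 and 1257 with upper-quartile factors. With the let-7e mimic none of the 10 was called by edgeR, against 9.5% of all genes. An unadjusted p under 0.05 was found for 3 of the 10 with let-7d and for 2 with let-7e, and with let-7e DESeq2 called Fis1 alone and limma-voom none. The median log2 change of the 10 was -0.03 with let-7d and -0.02 with let-7e, where the medians of all genes were -0.0022 and -0.0019. In size, without its sign, the median change of the 10 was 0.067 and 0.045, and that of all genes 0.134 and 0.111. This size also grows with the standard error (SE), whose median over all genes was 0.085 and 0.084. Among the 10 the SE with let-7d ran from 0.044 (Gabpa) to 0.130 (Ppargc1b), and only that of Ppargc1b exceeded the median of all genes. The plot of both mimics' effects shows the 10 intervals.

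**Figure D1:**
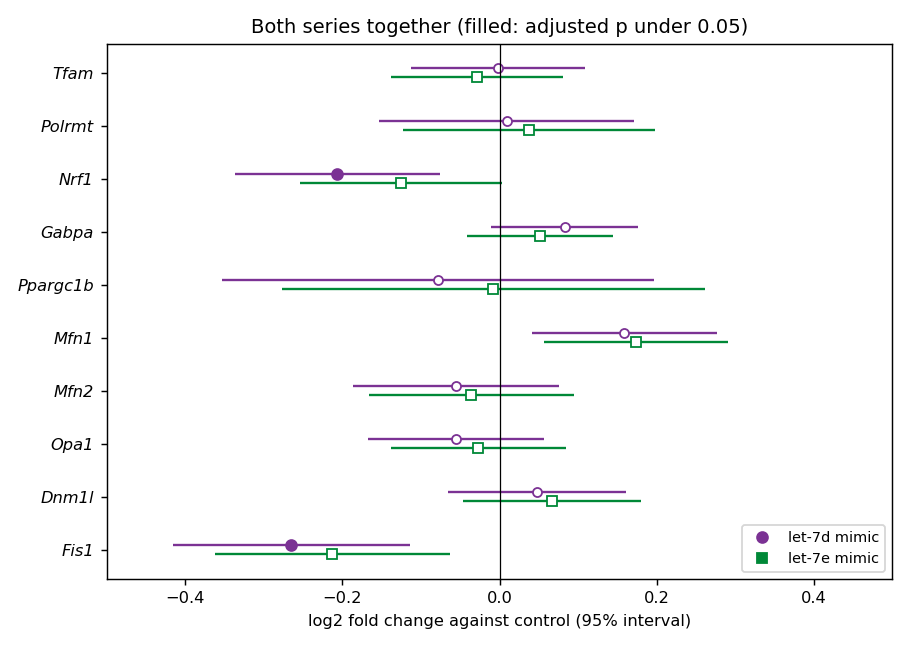
Log2 fold change of each regulator against control (points) with its 95% interval (bars) for the let-7d mimic (circles) and the let-7e mimic (squares), from 12 libraries with a term for series. Filled points had an adjusted p under 0.05, and these were Fis1 at -0.26 and Nrf1 at -0.21 with let-7d.

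Fis1, at chr5:136953275-136966234 on the plus strand, encodes a small protein anchored in the outer mitochondrial membrane. Its control libraries held 79.8 and 75.1 CPM in the first series and 143 and 127 in the second. Its let-7d libraries held 55.0 and 58.7 CPM in the first series and 132 and 120 in the second. Its let-7e libraries held 63.7 and 59.4 CPM in the first series and 132 and 120 in the second. In the first series every mimic library lay below both controls, whereas in the second the mimic libraries overlapped with the controls. Both let-7d libraries of the first series lay below both controls in 27.6% of all genes, and both let-7e libraries in 27%. Such shares, here and for the genes below, are for 1 mimic in 1 series. The share of genes so placed in several comparisons at once was not counted. Over both series Fis1 fell with let-7d by 0.26 ± 0.07 (SE) on the log2 scale (95% interval -0.42 to -0.11, edgeR adjusted p = 0.0184), to 0.832 of the control level. With let-7e the change was -0.21 ± 0.07 (interval -0.36 to -0.06, edgeR adjusted p = 0.0717), which was not called. All 4 libraries of each mimic lay below the control mean of their own series. The call with let-7d rested on each control and let-7d library of the first series: the adjusted p was 0.0634 without control 1, 0.0526 without control 2, 0.067 without let-7d 1 and 0.0567 without let-7d 2. With let-7e, Fis1 was called with DESeq2 (adjusted p = 0.0461), without control 4 (edgeR adjusted p = 0.0139) and without let-7d 3, whose spread the fit shares (0.0488).

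Nrf1, at chr6:30047988-30153458 on the plus strand, encodes nuclear respiratory factor 1, a transcription factor of genes for the respiratory chain. Its control libraries held 27.2, 26.2, 28.0 and 25.3 CPM in the order of their numbers. Its let-7d libraries held 21.4, 22.9, 22.9 and 25.2 CPM. Its let-7e libraries held 25.4, 23.1, 25.0 and 24.3 CPM. Every mimic library lay below both controls of its own series, for both mimics and in both series, although the gap was narrow in the second series (25.2 CPM in let-7d 4 against 25.3 in control 4). Among all genes, 27.6% had both let-7d libraries below both controls in the first series and 27.6% in the second, and for let-7e 27% and 21.7%. The share meeting all of these together was not counted. Nrf1 fell with let-7d by 0.21 ± 0.06 on the log2 scale (interval -0.34 to -0.08, edgeR adjusted p = 0.0318), to 0.867 of the control level. With let-7e the change was -0.13 ± 0.06 (interval -0.25 to 0.0036, edgeR adjusted p = 0.234). The call with let-7d was lost with upper-quartile scaling (adjusted p = 0.0557) and without any 1 of 6 libraries: control 1 (0.082), control 2 (0.0631), control 3 (0.0782), let-7d 1 (0.0972), let-7d 2 (0.0703) or let-7d 3 (0.0838).

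Of the 9 adipocyte markers in the table, edgeR called 1 higher and 0 lower with each mimic. Their median log2 change was -0.04 with let-7d and -0.06 with let-7e. Markers of some other cells differed between groups as well. The summed CPM of 6 smooth muscle markers was 3155 to 4196 in the controls of the first series, 2864 to 2976 with let-7d and 2623 to 2896 with let-7e. In the second series it was 6451 to 6760, 5098 to 5571 and 5397 to 5530. For 13 macrophage markers the sum was 327 to 337 in the controls of the first series, 303 to 323 with let-7d and 232 to 351 with let-7e, and in the second series 26.9 to 38.5, 63.7 to 149 and 48.1 to 75.5. Of these 13, edgeR called 2 higher with let-7d and none with let-7e, and of the 6 smooth muscle markers 3 and 2 lower. Over all genes 16.2% were called with let-7d (6.41% higher and 9.81% lower) and 9.5% with let-7e, so the 2 of 13 lay near the background. EdgeR called none of 6 endothelial and 5 mesothelial markers with either mimic. Of 8 preadipocyte and fibroblast markers 3 were called higher and 1 lower with each mimic. The part of these differences in the changes of Fis1 and Nrf1 was not tested. In bulk RNA, fewer cells of a type and less RNA per cell cannot be told apart.

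Gabpa, at chr16:84834925-84863779 on the plus strand, encodes the DNA-binding subunit of GA-binding protein, a factor of the ETS family also called nuclear respiratory factor 2. Its control libraries held 65.2, 61.6, 82.6 and 83.1 CPM, its let-7d libraries 70.9, 68.6, 86.4 and 83.2, and its let-7e libraries 65.7, 66.8, 85.7 and 84.9. All 8 mimic libraries lay above both controls of their series, by as little as 83.2 against 83.1 CPM. Among all genes both let-7d libraries were above both controls in 27% in the first series and 22.8% in the second, and both let-7e libraries in 24.8% and 20.4%. How many genes met all of these together was not counted. The change was 0.08 ± 0.04 with let-7d (interval -0.01 to 0.18, edgeR adjusted p = 0.223) and 0.05 ± 0.04 with let-7e (interval -0.04 to 0.14, adjusted p = 0.545), and neither was called. Gabpa shares 397 exon bases (6.98% of its exons) with Atp5j on the opposite strand, and without a known strand setting of the counting, reads from that stretch cannot be told apart.

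Ppargc1b, at chr18:61298136-61400431 on the minus strand, encodes a coactivator that binds nuclear receptors and raises mitochondrial gene expression. It was the least precise of the 10. In the first series its controls held 16.6 and 21.1 CPM, its let-7d libraries 15.9 and 19.5 and its let-7e libraries 18.5 and 19.5. In the second series its 6 libraries held only 0.718 to 1.24 CPM. Control and mimic libraries overlapped in both series, except for let-7e in the second. There both let-7e libraries (0.954 and 0.928) were below both controls (0.977 and 1.10), as in 21.7% of all genes. The changes were -0.08 ± 0.13 with let-7d (interval -0.35 to 0.20) and -0.01 ± 0.13 with let-7e (interval -0.28 to 0.26), and neither was called.

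Tfam, at chr10:71225464-71238280 on the minus strand, encodes the factor that packages mitochondrial DNA and starts its transcription. In the first series its controls held 29.5 and 29.6 CPM, its let-7d libraries 29.9 and 30.5 and its let-7e libraries 28.3 and 29.4. The second-series controls held 48.8 and 46.3, the let-7d libraries 46.6 and 46.5 and the let-7e libraries 49.7 and 43.8. In the first series the let-7d libraries lay just above both controls (as in 27% of all genes) and the let-7e libraries just below (27%). In the second both groups overlapped with control. Its change was -0.0018 ± 0.0523 with let-7d (interval -0.11 to 0.11) and -0.03 ± 0.05 with let-7e (interval -0.14 to 0.08). Among the 10 only Tfam holds an 8mer, which matches the same seed bases as the 7mer-m8 of Fis1 and has an A after them. Neither interval of Tfam reaches beyond -0.14 or 0.11 on the log2 scale.

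Polrmt, at chr10:79736123-79746581 on the minus strand, encodes the RNA polymerase of mitochondria. Its first-series controls held 30.1 and 33.5 CPM, its let-7d libraries 32.2 and 34.2 and its let-7e libraries 32.9 and 34.1. The second-series controls held 11.5 and 14.4, the let-7d libraries 11.3 and 13.5 and the let-7e libraries 12.8 and 12.9. Mimic and control libraries overlapped in both series. The changes were 0.0089 ± 0.0766 (interval -0.15 to 0.17) and 0.04 (interval -0.12 to 0.20) with let-7d and let-7e. The signs of Tfam and Polrmt with let-7d turned with the scaling of the libraries: Tfam was at 0.02 with upper-quartile factors, and Polrmt at -0.0033 with RLE size factors.

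The mitofusin gene Mfn1, at chr3:32529465-32579239 on the plus strand, was the regulator nearest to a rise. Its control libraries held 41.9, 43.3, 35.7 and 37.2 CPM, its let-7d libraries 50.6, 46.2, 37.0 and 43.2, and its let-7e libraries 49.6, 48.2, 39.6 and 41.2. All 8 mimic libraries lay above the control mean of their series, and they lay above both controls except for let-7d 3, which lay between them. In the first series 27% of all genes had both let-7d libraries above both controls and 24.8% both let-7e libraries. For let-7e in the second series it was 20.4%. The change of Mfn1 was 0.16 ± 0.06 with let-7d (interval 0.04 to 0.28, edgeR adjusted p = 0.0626) and 0.17 ± 0.06 with let-7e (interval 0.06 to 0.29, edgeR adjusted p = 0.0589), and neither passed the threshold. Without let-7d 3 both did, with edgeR adjusted p-values of 0.0251 and 0.0373, and with upper-quartile scaling both did as well (0.0337 and 0.0461). With a minimum of 1 CPM in at least 4 libraries the let-7d change passed too (edgeR adjusted p = 0.0494).

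Mfn2 and Opa1 were not called with either mimic. Mfn2, at chr4:147873599-147904704 on the minus strand, joins outer membranes as Mfn1 does and also tethers mitochondria to the endoplasmic reticulum. Its first-series controls held 208 and 231 CPM, its let-7d libraries 220 and 225 and its let-7e libraries 209 and 212. The second-series controls held 73.3 and 77.6, the let-7d libraries 62.3 and 74.6 and the let-7e libraries 74.1 and 75.5. Mimic and control libraries overlapped in both series, and the changes were -0.06 ± 0.06 with let-7d (interval -0.19 to 0.08) and -0.04 with let-7e (interval -0.17 to 0.10). Opa1, at chr16:29579334-29654884 on the plus strand, encodes the GTPase of the inner membrane that also shapes its folds, the cristae. Its controls held 105, 116, 75.6 and 79.0 CPM, its let-7d libraries 108, 116, 69.4 and 71.2, and its let-7e libraries 111, 107, 77.8 and 72.4. Only in the second series with let-7d did the 2 groups not overlap, both let-7d libraries being lower, as in 27.6% of all genes. The changes of Opa1 were -0.06 ± 0.05 with let-7d (interval -0.17 to 0.06) and -0.03 with let-7e (interval -0.14 to 0.08).

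Dnm1l, at chr16:16312230-16358959 on the minus strand, encodes the dynamin-related GTPase that constricts and cuts mitochondria. Its control libraries held 99.0 and 93.4 CPM in the first series and 129 and 128 in the second. Its let-7d libraries held 103 and 109 CPM in the first series and 123 and 127 in the second. Its let-7e libraries held 111 and 109 CPM in the first series and 127 and 121 in the second. Every mimic library of the first series thus lay above both controls, and every mimic library of the second lay below both. Of all genes, 27% were so placed above control with let-7d in the first series and 24.8% with let-7e. In the second, 27.6% were so placed below control with let-7d and 21.7% with let-7e. Over both series the changes of Dnm1l were 0.05 ± 0.05 with let-7d (interval -0.07 to 0.16, edgeR adjusted p = 0.604) and 0.07 ± 0.05 with let-7e (interval -0.05 to 0.18, adjusted p = 0.511). Dnm1l shares 243 exon bases (4.67%) with the predicted gene Gm49521 on the opposite strand, which was not in the table.

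**Figure D2:**
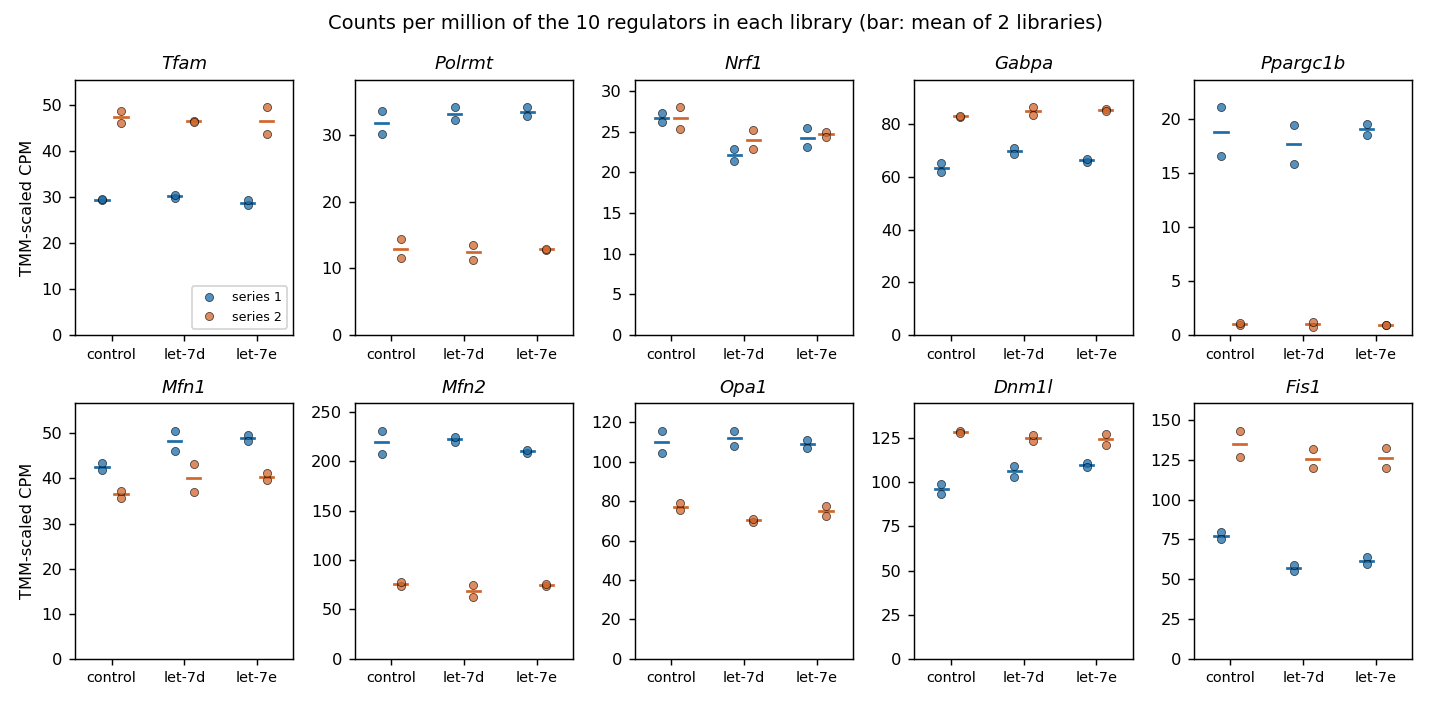
TMM-scaled CPM of the 10 regulators in every library (points) by group, with the first series in blue and the second in orange and a bar at the mean of the 2 libraries. Fis1 was lower with both mimics in the first series (55.0 to 63.7 CPM against 75.1 and 79.8). The series do not overlap for 8 of the 10 genes, nor for 62% of all genes.

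Between the mimics no difference was found. None of the 10 regulators was called between let-7d and let-7e, none had an unadjusted p under 0.05, and edgeR called 0.152% of all genes (24), while DESeq2, which called 122 genes, called none of the 10 either, nor did limma-voom. The estimate for Nrf1 was the farthest from 0, with let-7d lower than let-7e by -0.08 ± 0.06 (interval -0.21 to 0.05). For Fis1 it was -0.05 ± 0.07 (interval -0.20 to 0.10), for Mfn1 -0.0150 ± 0.0546 (interval -0.13 to 0.10) and for Gabpa 0.03 ± 0.04 (interval -0.06 to 0.12). Ppargc1b had the widest interval, -0.34 to 0.20. The absence of a call does not show that the 2 mimics act alike on these genes.

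Within the series, the one regulator called against control was Fis1, in the first. In a model with a mean for each group and series, Fis1 fell in the first series with let-7d by 0.45 ± 0.085 (interval -0.63 to -0.26, edgeR adjusted p = 0.00406) and with let-7e by 0.33 ± 0.083 (interval -0.51 to -0.15, adjusted p = 0.0271). This was 1 of 10 regulators in each comparison, where 10.9% of all genes were called for let-7d (6.28% as lower) and 7.12% for let-7e (4.02% as lower). In the second series the change of Fis1 was -0.10 ± 0.08 with let-7d (interval -0.27 to 0.07) and -0.10 ± 0.08 with let-7e (interval -0.27 to 0.07), and edgeR called none of the 10, against 8.56% and 2.48% of all genes. No regulator had an unadjusted p under 0.05 in the second series with either mimic, and DESeq2 and limma-voom called none there. The difference of the let-7d effect between the series was 0.34 ± 0.12 (second minus first, interval 0.10 to 0.59), and it was not called (edgeR adjusted p = 0.202). For let-7e this difference in Fis1 was 0.23 ± 0.11 (interval -0.01 to 0.48, edgeR adjusted p = 0.589). Leaving out let-7d 1 ended the call of Fis1 with let-7d in the first series, and leaving out control 1, let-7e 1 or let-7e 2 ended that with let-7e.

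Dnm1l had opposite signs in the 2 series. Its change with let-7d was 0.14 ± 0.06 in the first and -0.04 ± 0.06 in the second, and with let-7e 0.19 ± 0.06 and -0.05 ± 0.06. None of these was called, the nearest being let-7e in the first series (edgeR adjusted p = 0.0832). This difference between the series, second minus first, was -0.18 ± 0.09 for let-7d (edgeR adjusted p = 0.389) and -0.24 ± 0.09 for let-7e (edgeR adjusted p = 0.431). By edgeR no regulator was called for such a difference, against 0.241% of all genes for let-7d and 0.00635% for let-7e, and 1 of 10 had an unadjusted p under 0.05 for each mimic, Fis1 for let-7d and Dnm1l for let-7e. DESeq2 and limma-voom called none for such a difference either. Nrf1 had the same sign in both series, with -0.27 ± 0.09 and -0.15 ± 0.09 with let-7d and -0.14 ± 0.09 and -0.11 ± 0.08 with let-7e. Mfn1 did so too, with 0.18 ± 0.08 and 0.14 ± 0.08 for let-7d and 0.20 ± 0.08 and 0.15 ± 0.08 for let-7e. None of the 8 values for Nrf1 and Mfn1 was called within a series.

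**Figure D3:**
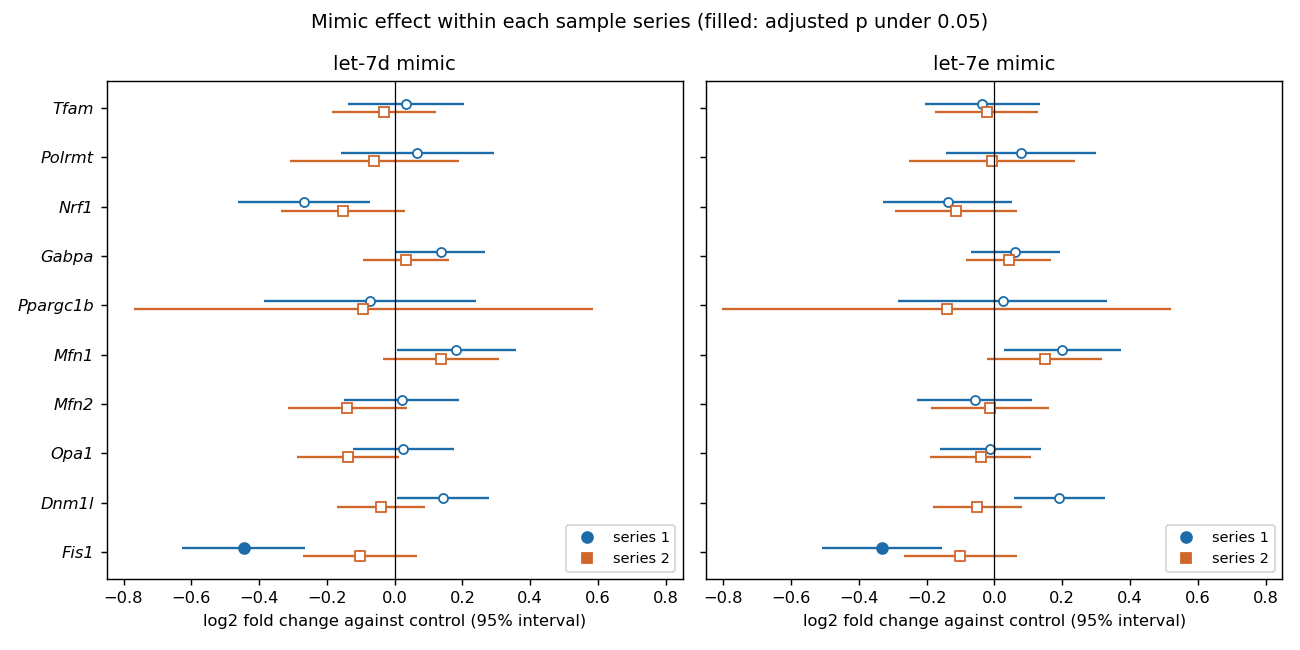
Log2 fold change against control within the first series (circles) and the second (squares), with 95% intervals, for let-7d (left) and let-7e (right). Filled points had an adjusted p under 0.05, and both belong to Fis1 in the first series, at -0.45 and -0.33.

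The levels of the 10 regulators differed far more between the series than between the mimics and control, with a median change, without its sign, of 0.621 on the log2 scale. For all genes this median was 0.591. Averaged over groups, edgeR called 9 of 10 between the series, 4 higher and 5 lower in the second, against 81.7% of all genes (41.7% higher and 40% lower), so the share is near the background. The ranges of the 6 libraries of each series did not overlap for 8 of 10 regulators, and for 62% of all genes. Ppargc1b was lower in the second series by -4.23 ± 0.115 on the log2 scale (edgeR adjusted p = 7.29e-15), with a median of 0.966 CPM against 19.0. Mfn2 was lower by -1.58 ± 0.051 (median 74.3 against 216 CPM) and Polrmt by -1.37 ± 0.062 (median 12.8 against 33.2). Opa1 (-0.57 ± 0.043) and Mfn1 (-0.26 ± 0.045) were also lower, so all 3 fusion genes stood lower in the second series. Both fission genes stood higher there, Fis1 by 0.99 ± 0.058 (median 129 against 61.6 CPM) and Dnm1l by 0.28 ± 0.044 (127 against 106). The wider lists did not split in this way: of 20 other genes of fusion and inner membrane shape 8 were higher and 10 lower, and of 14 fission adaptors and regulators 4 were higher and 7 lower. Tfam was higher by 0.67 ± 0.043 (46.5 against 29.5) and Gabpa by 0.34 ± 0.036 (84.0 against 66.3). Nrf1 did not pass the test (0.04 ± 0.05, edgeR adjusted p = 0.45), with 21.4 to 27.2 CPM in the first series and 22.9 to 28.0 in the second. Besides the adipocyte markers, 5 of 8 preadipocyte and fibroblast markers were higher in the second series and 3 lower, although their summed CPM, mostly that of Col1a1, was lower (6789 to 7552 against 16120 to 20050). There 12 of 13 macrophage markers were lower, and 5 of 6 smooth muscle markers were higher. Of 6 endothelial markers 1 was higher and 3 lower, and of 5 mesothelial markers 2 were higher and 2 lower. Their part in the levels of the 10 regulators was not tested, and the cell makeup of the cultures and the series cannot be told apart.

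Per exon length, as RPKM (CPM divided by GENCODE exon length in kilobases), the order of the regulators changed with the series. In the first series Mfn2 (median 41.5 RPKM, range 40.0 to 44.5) and Fis1 (35.9, range 32.1 to 46.6) were at the top with overlapping ranges. Dnm1l (20.4), Opa1 (13.9) and Gabpa (11.7) followed, each apart from its neighbours. Mfn1 (7.72) overlapped with Polrmt (7.09) and Polrmt with Tfam (6.65), and Ppargc1b (4.76) and Nrf1 (2.36) were lowest. The median over all genes was 4.03 RPKM, and Mfn2 stood at the 92.7th percentile and Nrf1 at the 38.8th. In the second series Fis1 led with 75.4 RPKM (range 69.8 to 83.6), at the 95.7th percentile, before Dnm1l (24.4). Gabpa (14.8) and Mfn2 (14.3) overlapped, as did Tfam (10.5) and Opa1 (9.40), followed by Mfn1 (6.29). Polrmt (2.74) and Nrf1 (2.44) overlapped too, and Ppargc1b was last with 0.242 RPKM, at the 10.8th percentile of all genes. Exon lengths are those of all annotated transcripts together, so a gene that uses short transcripts is set too low.

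**Figure D4:**
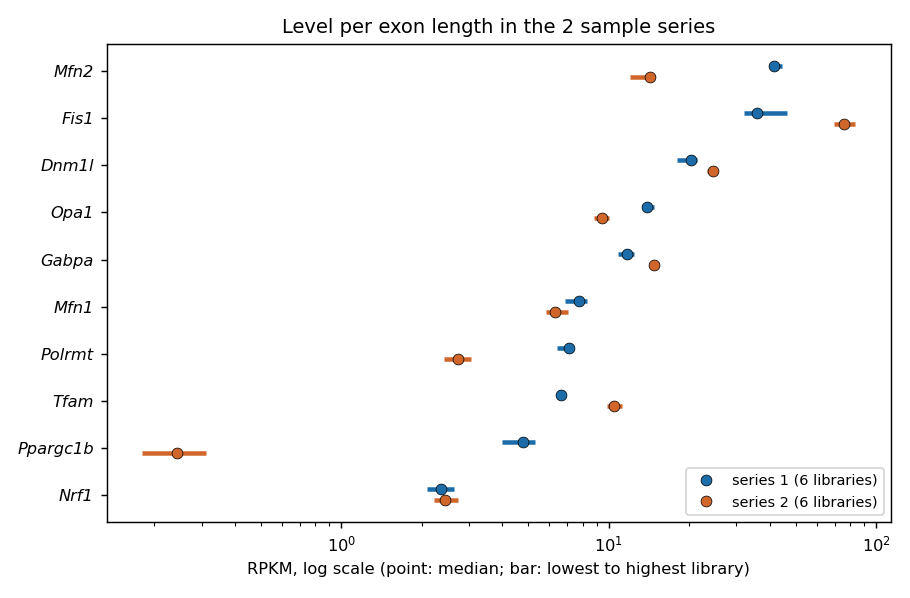
Level per exon length (RPKM, log scale) of the 10 regulators in the first series (blue) and the second (orange), 6 libraries each, with the median as a point and the lowest to highest library as a bar. Fis1 stood at 35.9 and 75.4 RPKM, and Ppargc1b at 4.76 and 0.242.

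Because Nrf1 and Gabpa bind promoters, letters known as their motifs were sought in RefSeq promoters (GRCm38.p6, 250 bases before to 50 after the start, both strands). The palindromic NRF1 motif, which is the first 10 capitals printed for Opa1, is in 0.971% of 32851 promoters, a core that overlaps it, GCATGCGCA, in 1.52%, and the ETS motif CCGGAAGT, which GA-binding protein shares with other ETS factors, in 3.89%. Promoters of 9 of the 10 regulators were matched, all but Ppargc1b. Of these 9, Opa1 holds the first, Opa1 and Polrmt the second, and Tfam, Mfn1 and Fis1 the third. The shares above are per promoter, whereas a regulator is counted here if any of its promoters matches, and some have several. The unlike units cannot be compared directly. The matches are printed on the gene's strand with the matched letters in capitals, to be set beside the changes of Nrf1 and Gabpa themselves.
Opa1: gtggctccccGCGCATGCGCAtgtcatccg
Polrmt: aagagtatttcTGCGCATGCtctcttgccg
Tfam: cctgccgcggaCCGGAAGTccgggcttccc
Mfn1: gatccgaagcgCCGGAAGTagccgccccta
Fis1: ggaggcaccacCCGGAAGTtcaggcttccc
These lie at chr16:29579265-29579294 (plus strand), chr10:79746697-79746726 (minus), chr10:71238073-71238102 (minus), chr3:32529427-32529456 (plus) and chr5:136953246-136953275 (plus). The centres of the matches are 54 bases before the RefSeq start for Opa1, 130 for Polrmt, 43 for Tfam, 40 for Mfn1 and 14 for Fis1, and Fis1 has a further match 23 bases after another start. Beside the fall of Nrf1 with let-7d, Opa1 stood at -0.06 and Polrmt at 0.0089, neither called. The 3 genes with the ETS letters had changes of -0.0018 (Tfam), 0.16 (Mfn1) and -0.26 (Fis1), where Gabpa was at 0.08. A match is no shown binding site, and its absence says only that these letters are not in the window.

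Other genes of the same pathways were taken from 6 lists with 96 symbols, of which 94 were in the table (Esrrg and Pld6 were not). With let-7d 6 were higher and 5 lower, 11.7% of 94 against 16.2% of all genes. With let-7e 2 were higher and 3 lower, 5.32% against 9.5%. Their median changes were 0.0023 and 0.01. Without let-7d 2 the count with let-7d was 6, and without let-7e 2 or let-7e 4 the count with let-7e was 3. Between the mimics edgeR and limma-voom called 0 of 94, with an unadjusted p under 0.05 for 3, and DESeq2 called 1.

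Among the fission adaptors and regulators, 3 of 14 were called with let-7d (21.4%, against 16.2% of all genes) and 2 with let-7e (14.3%, against 9.5%). Pgam5, a phosphatase of the mitochondrial membrane that acts on the Dnm1l protein, had the largest rise of all 94 in both comparisons. It held 22.9 and 25.6 CPM in the controls of the first series, 39.6 and 40.8 with let-7d and 35.9 and 39.5 with let-7e. Its second-series libraries held 42.3 and 44.0, 55.8 and 55.8, and 59.3 and 59.9 CPM. Pgam5 thus did not overlap with control in either series, and it rose by 0.54 ± 0.068 with let-7d (edgeR adjusted p = 8.56e-05) and by 0.54 ± 0.068 with let-7e (0.000134). Of all genes, 27% and 22.8% had both let-7d libraries above both controls (first series, then second). For let-7e these shares were 24.8% and 20.4%. Sh3glb1, which binds and curves membranes, fell by 0.28 ± 0.050 and 0.25 ± 0.050. Mief1, a receptor for the Dnm1l protein on the outer membrane, fell with let-7d by 0.25 ± 0.069 and stood at -0.16 ± 0.068 with let-7e (adjusted p = 0.155).

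In the list for replication and expression of mitochondrial DNA, 2 of 22 were called with each mimic (9.09%, against 16.2% and 9.5% of all genes). Rrm2b, a subunit of the enzyme that makes deoxynucleotides outside S phase and a known p53 target, rose by 0.50 ± 0.080 with let-7d and 0.42 ± 0.079 with let-7e. Rnaseh1, which removes RNA primers, rose with let-7d by 0.27 ± 0.072. Tfb1m, which methylates the ribosomal RNA of mitochondria, fell with let-7e by 0.52 ± 0.139 (edgeR adjusted p = 0.0278) and was at -0.32 ± 0.14 with let-7d (adjusted p = 0.132). It was a low gene, with 3.25 to 7.71 CPM over all libraries, and the difference between the mimics was not called.

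In the list for fusion and inner membrane shape, 4 of 20 were called with let-7d (20%, against 16.2% of all genes) and 1 with let-7e (5%, against 9.5%). Apool, a part of the complex that holds the cristae junctions, fell by 0.38 ± 0.080 with let-7d and 0.32 ± 0.078 with let-7e. Samm50, which inserts proteins into the outer membrane and docks on that complex, fell with let-7d by 0.30 ± 0.050 and stood at -0.08 ± 0.05 with let-7e. Its difference between the mimics was -0.22 ± 0.05 (edgeR adjusted p = 0.116). Phb, a scaffold of the inner membrane, fell with let-7d by 0.17 ± 0.050, and Miga1, which promotes fusion, rose with let-7d by 0.32 ± 0.098. Of 19 coactivators and upstream genes 1 was called with let-7d, Nfe2l2, a factor of the antioxidant response (0.15 ± 0.05), and none by edgeR with let-7e (3 had an unadjusted p under 0.05).

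Of 14 mitophagy genes 1 was called with let-7d, the receptor gene Fundc1 (0.20 ± 0.06), and none by edgeR with let-7e (3 had an unadjusted p under 0.05). Of all genes, 16.2% were called with let-7d and 9.5% with let-7e. Of 5 transport genes edgeR called none with either mimic (an unadjusted p under 0.05 was found in 2 for let-7d and in 0 for let-7e), the nearest being Trak1 at -0.20 ± 0.07 with let-7d (adjusted p = 0.0731). Of the 13 protein-coding messages of mitochondrial DNA, 7 were in the table, and edgeR called none with either mimic, nor had any an unadjusted p under 0.05. The median change of these 7 was 0.0002 with let-7d and -0.03 with let-7e, and the one nearest to a call, mt-Nd1, stood at -0.08 ± 0.06 and -0.10 ± 0.06. Between the series 85 of the 94 were called (90.4%), 38 higher and 47 lower in the second, where 81.7% of all genes were. Ppargc1a, the best known coactivator of this family, was lower in the second series by -3.50 ± 0.11, beside Ppargc1b.

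**Figure D5:**
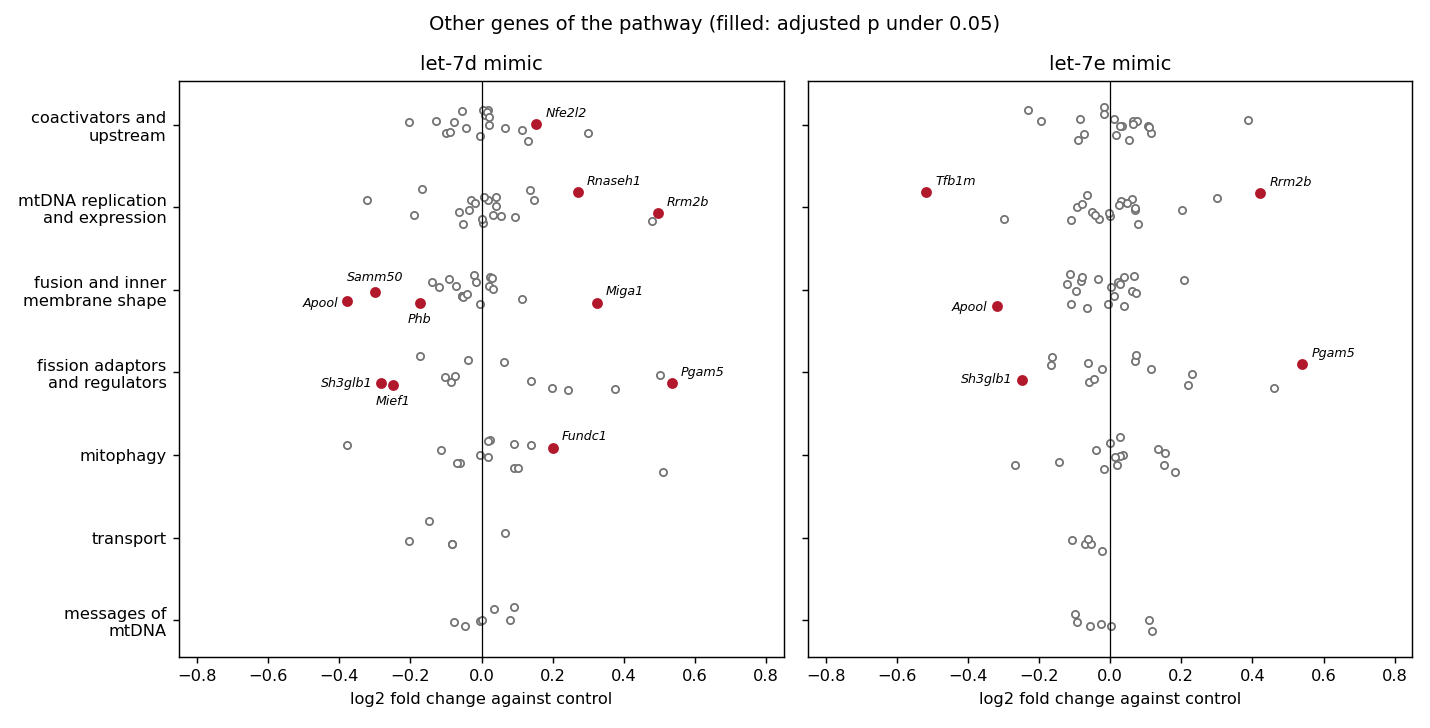
Log2 fold change against control of the other pathway genes and of 7 messages of mitochondrial DNA, by list, with let-7d (left) and let-7e (right). Each point is 1 gene, points are spread vertically for legibility, and filled, named points had an adjusted p under 0.05. Pgam5 stood at 0.54 in both.

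For the 2 called regulators, the genes with the most similar pattern were sought by Pearson's r of log2 CPM after the mean of each series was subtracted, over 12 libraries and among the 11208 genes whose mean log2 CPM reached 2. The libraries share their groups and their depth, so r is a description. Group differences stay in these values, so genes found this way tend to share the regulator's change. Of all genes, 9.81% were called lower with let-7d. For Fis1 the most similar genes were 1600012H06Rik (r = 0.974), B3gnt9 (0.967) and Eif1ax (0.955), all 3 of them called lower with let-7d, at log2 changes of -0.30, -0.52 and -0.25. For Nrf1 they were Slc35f5 (0.926), Tsc22d3 (0.903) and Cog7 (0.898), of which Tsc22d3 was called lower with let-7d (-0.30 ± 0.05).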

How the data were processed

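Counts are whole numbers per Ensembl gene as the authors deposited them, with 1 column for each of 12 libraries. Per the submitters' processing notes, STAR and GRCm38.p6 were used. The sources used here do not give the read counter, its strand setting or STAR's version. Per its name, the deposited table was filtered on low CPM, at an unstated threshold. A second deposited table, named RPKM, was not used: with the counts it implies gene lengths that differ between libraries by a median ratio of 69.2 for the same gene. Identifiers were matched to GENCODE vM21 (15736 of 15754).

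CPM were scaled by TMM in edgeR 4.0.16 (R 4.3.3), and RPKM divide them by union exon length. The quasi-likelihood test was fitted to all 15754 genes and 12 libraries with terms for group and series (8 residual degrees of freedom). Effects within a series and their difference came from a model with a mean for each group and series (6 residual degrees of freedom). SE is the log2 change divided by the square root of F, and p-values are two-sided. No pair of libraries agreed within counting noise. Replicate numbers are shared between groups, but deviations of same-numbered libraries correlated from -0.065 to 0.188, so they were not taken as pairs. Counts of 15754 genes were simulated from a fit to all 12 libraries, with the control means of a series used for every group. In the let-7d libraries some genes above a minimum mean CPM were then changed, a far smaller share than was called in the real data. The test recovered 29.9% of 67 genes changed by 0.25 on the log2 scale, 89.6% of 67 changed by 0.5 and 100% of 66 changed by 1. These shares hold for that setting and do not give the power of the real comparison or for low genes.

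The 10 genes, the pathway and marker lists, the motifs and the tests were chosen with earlier results of these data known. Named genes are the 10, up to 4 called genes of each list (otherwise the one with the smallest p), Hmga2 and Dicer1, and the 3 genes most similar to each called regulator. Ppargc1a was named after its value was seen. Alternatives were upper-quartile and RLE scaling, DESeq2 1.42.0, limma-voom (limma 3.58.1), a minimum of 1 CPM in at least 4 libraries, a replicate block, no series term, only the 2 groups compared, and leaving out each library.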

Additional observations from a re-analysis of the deposited data

How the results depend on the processing

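The count of called regulators with let-7d (2) became 0 without a series term and 1 with only the libraries of the 2 groups compared, and 3, Mfn1 added, with the CPM filter or the replicate block. With let-7e (0) it became 1 with upper-quartile factors, DESeq2, the replicate block or only the 2 groups. Leaving out 1 library at a time gave 0 to 2 with each mimic, 0 to 1 for either mimic in the first series, and 9 to 9 between the series. Without a series term 0 pathway genes were called with either mimic, and 7 and 0 of all genes. With only the 2 groups 7 pathway genes were called with let-7d. Between the mimics, DESeq2 and only the 2 groups called 1 pathway gene each. Of all genes they called 122 and 105, the replicate block 5 and no series term 1. Leaving out 1 library gave 6 to 16 pathway genes with let-7d and 3 to 7 with let-7e, and of all genes 1781 to 2535, 844 to 1606 and, between the mimics, 3 to 38.

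Fis1 with let-7d was called in 15 of 20 alternatives (adjusted p from 0.00342 to 1) and Nrf1 in 11 (0.02 to 0.813, and 0.0694 with only the 2 groups). Mfn1 was called with the replicate block at adjusted p = 0.0489 with let-7d and 0.0444 with let-7e, and the block changed no other call of a regulator against control. Signs turned only for values near 0. Tfam with let-7d was at 0.0239 with upper-quartile factors and 0.0031 with the CPM filter, and Polrmt with let-7d at -0.0033 with RLE and -0.0034 with DESeq2. Ppargc1b with let-7e was at 0.0089 with upper-quartile factors, 0.0292 with limma-voom, 0.0111 without a series term and 0.0031 with only the 2 groups. Leaving out 1 library moved Tfam from -0.0152 to 0.0175 (let-7d) and -0.0738 to 0.0026 (let-7e), Polrmt from -0.0379 to 0.0771 and -0.0087 to 0.1062, Ppargc1b from -0.2097 to 0.0373 and -0.1398 to 0.1177, and Mfn2 with let-7d from -0.0923 to 0.0111. The cause was not tested. The replicate numbers, entered as a block, stand for no known pairing. Ppargc1b, with as few as 19 counts, is limited by depth in the second series.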
